A study of Mus musculus with 4 samples.

Results

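A set of 9 genes that code for synaptic adhesion molecules were followed across the nuclei of the mouse cerebral cortex, namely Nrxn2, Nrxn3, Ptprd, Ptprs, Nlgn1, Nlgn2, Nlgn3, Lrrtm4 and Il1rapl1. They were taken by symbol and are 9 of the 21933 genes in the deposited matrices, and each symbol matched 1 row. The genes were chosen by their UMI counts in the same 4 matrices, including the difference between genotypes, so their genotype values are given as a description without a test. The levels across cell types were compared with a test, and the grouping of nuclei into cell types left these genes out. The genes were nevertheless chosen with their counts in neurons and glia known, so these p-values are no independent evidence that the genes vary between cell types. The library entered as a block, which takes out the shift common to a library. The p-values set a difference against the variation left after that, pooled over all cell types of a fit and resting on 4 animals.

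The nuclei came from the right cerebral cortex of 4 adult male C57Bl/6J mice, with 1 library per animal. The 2 CrT-KO animals (CrT-/y) carried a deletion in Slc6a8, the X-linked gene of the creatine transporter, and the 2 Control animals were wild-type littermates (CrT+/y). The deletion is constitutive and present in all tissues, so a change in one cell type cannot be assigned to the loss of the transporter in that cell type. No animal received a treatment, and nuclei were isolated, sorted by flow cytometry and run on a droplet platform that counts unique molecular identifiers (UMIs) at the 3′ end.

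The 4 libraries held 8282 to 9295 nuclei each, 35694 in all, with 51507483 to 65240843 UMIs per library and a median of 5548 to 6700.5 UMIs per nucleus. Of 35598 distinct barcodes, 96 occurred in more than 1 library. After removal of predicted doublets, 33208 nuclei were placed in 7 populations by markers: 17077 excitatory neurons, 7340 inhibitory neurons, 5123 oligodendrocytes, 2231 microglia, 660 oligodendrocyte precursor cells (OPCs), 487 astrocytes, and 290 endothelial cells and pericytes. The other 1273 nuclei were not named. Excitatory nuclei were split further into 8 layer subclasses and inhibitory nuclei into 5, each named "like" after its markers. One of the inhibitory subclasses carried markers of striatal medium spiny neurons (MSN-like), so the dissected tissue held striatal nuclei. These were 1976 of the 7340 inhibitory nuclei (26.9%). Among the excitatory nuclei, 1 cluster of 953 had Slc17a6 among its leading genes, the vesicular glutamate transporter best known from subcortical neurons. The inhibitory population also held an unnamed subcluster of 414 nuclei with Slc17a6 among its leading genes. In the clustering of all nuclei, a cluster of 1324 placed with inhibitory neurons had none of their markers among its 10 leading genes. Its marker score was 0.22. The part of all these nuclei, striatal ones included, in the contrasts between neuron types was not tested. The L5/6 NP-like subclass joined 3 clusters with different leading genes. The L6 IT-like subclass was a single cluster of 244 nuclei, led by Col11a1 and Gfra1. None of the L6 IT markers was among its 10 leading genes. A cluster of 1338 nuclei led by Galnt14, which is an L6 IT marker, had too few markers detected and stayed unnamed. Levels given for L6 IT-like nuclei thus describe the cluster of 244 alone. Slc6a8 itself gave 234 and 206 UMIs in excitatory nuclei of the Control libraries and 66 and 52 in the CrT-KO libraries (log2 fold change -1.96 ± 0.18 SE, edgeR adjusted p = 0.000434), which matched the labels.

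Neurexins sit in the presynaptic membrane and bind across the cleft to neuroligins, to the leucine-rich repeat protein LRRTM4 and to many other partners. Receptor tyrosine phosphatases of the LAR type, here PTPRD and PTPRS, form a parallel presynaptic hub that binds IL1RAPL1 and other postsynaptic proteins. These contacts recruit the release machinery on one side and receptors with their scaffolds on the other, and the set of partners a neuron carries is thought to shape which synapses it forms.

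The 9 genes differ greatly in size. On GRCm38 with GENCODE vM21 annotation, Ptprd spans chr4:75941238-78211961 on the minus strand (2271 kb), Nrxn3 chr12:88722876-90334935 on the plus strand (1612 kb), Il1rapl1 chrX:86740870-88115645 on the minus strand (1375 kb), Nlgn1 chr3:25426215-26332460 on the minus strand (906 kb) and Lrrtm4 chr6:80018877-80810143 on the plus strand (791 kb). Nrxn2 lies at chr19:6418731-6544169 on the plus strand (125 kb) and overlaps Slc22a12 on the opposite strand. Ptprs lies at chr17:56412426-56476483 on the minus strand (64.1 kb), Nlgn3 at chrX:101299168-101325963 on the plus strand (26.8 kb) and Nlgn2 at chr11:69823122-69837784 on the minus strand (14.7 kb). The authors counted reads over the whole gene body, introns included, and the 5 longest genes gave 733420 (Il1rapl1) to 2817661 (Ptprd) UMIs over the 7 populations. The 4 shorter genes gave 4916 (Nlgn3) to 40362 (Ptprs).

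Start regions were available for 4 of the 5 long and 2 of the 4 short genes. Shown are 1 of each short gene and, of the long genes, that of Il1rapl1 and the one with the most CpGs, of Nrxn3, to show the range of base composition. Each window runs from 250 bases before to 50 after a transcription start, 5′ to 3′ on the strand of the gene (RefSeq, GRCm38.p6), and capitals mark CpG dinucleotides.
Ptprs, chr17:56476431-56476730, minus strand: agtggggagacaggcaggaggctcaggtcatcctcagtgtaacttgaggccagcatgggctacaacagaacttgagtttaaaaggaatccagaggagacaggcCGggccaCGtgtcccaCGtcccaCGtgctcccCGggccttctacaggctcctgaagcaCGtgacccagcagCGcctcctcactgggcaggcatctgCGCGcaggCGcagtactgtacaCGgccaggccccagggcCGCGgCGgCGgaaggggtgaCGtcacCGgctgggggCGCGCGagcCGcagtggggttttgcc
Nlgn2, chr11:69837735-69838034, minus strand: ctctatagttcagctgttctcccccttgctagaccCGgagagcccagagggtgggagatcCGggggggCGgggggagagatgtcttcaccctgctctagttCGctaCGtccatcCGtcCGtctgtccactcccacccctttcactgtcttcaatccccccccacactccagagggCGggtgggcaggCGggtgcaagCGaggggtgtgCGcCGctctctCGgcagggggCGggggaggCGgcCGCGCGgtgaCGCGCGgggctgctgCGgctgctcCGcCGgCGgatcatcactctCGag
Il1rapl1, chrX:88115899-88116198, minus strand: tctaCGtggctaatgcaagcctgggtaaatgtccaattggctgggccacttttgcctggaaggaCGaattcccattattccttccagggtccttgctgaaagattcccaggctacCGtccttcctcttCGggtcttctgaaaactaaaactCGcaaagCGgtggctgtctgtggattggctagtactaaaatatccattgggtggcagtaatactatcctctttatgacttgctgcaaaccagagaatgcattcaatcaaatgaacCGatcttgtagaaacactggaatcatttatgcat
Nrxn3, chr12:89812233-89812532, plus strand: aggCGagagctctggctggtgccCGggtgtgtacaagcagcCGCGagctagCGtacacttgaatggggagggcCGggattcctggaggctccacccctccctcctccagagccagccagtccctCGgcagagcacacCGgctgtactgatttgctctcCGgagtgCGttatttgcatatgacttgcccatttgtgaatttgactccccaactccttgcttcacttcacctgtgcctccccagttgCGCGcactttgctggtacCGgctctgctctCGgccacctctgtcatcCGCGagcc
The windows of the short genes Ptprs and Nlgn2 held 21 and 26 CpGs with a GC content of 65.7% and 68.7%. The window of Il1rapl1 held 7 CpGs and 45.0% GC, and that of Nrxn3 held 16 and 60.7%. In all, 3 windows of the short genes held 18 to 26 CpGs at 64.3% to 68.7% GC, and 8 windows of the long genes 2 to 16 at 44.7% to 60.7%. Over all 32851 RefSeq windows of this length the medians were 7 CpGs and 52.7% GC, so 3 of the 8 long-gene windows were above the CpG median. The Ptprs window held 1 copy of the cAMP response element TGACGTCA, which was present in 1.79% of all windows, and 3 copies of the E-box CACGTG, present in 7.15%. Both motifs read the same on either strand and the copies did not overlap. Neither motif occurred in the other 10 windows of these genes, which covered 6 of the 9. These matches are letters in a window and say nothing of binding.

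Levels are given as CPM, the UMIs of a gene scaled to a total of 1000000 UMIs of that population in that library. Differences between cell types are log2 fold changes from edgeR with the library as a block and an adjusted p threshold of 0.1. Its TMM scaling moved the contrasts between populations away from the CPM ratios, by 0.17 on the log2 scale for excitatory minus inhibitory neurons, 0.29 for excitatory neurons minus OPCs and 0.71 for excitatory neurons minus microglia. All 9 genes passed the filter on low counts in these fits. Of the 189 possible differences of a gene between 2 populations, 167 passed (88.4%), against 57.4% of all gene and pair tests, a share that ranged from 38.0% to 80.4% over single contrasts. Between excitatory subclasses 187 of 252 passed (74.2%, against 38.9% over all genes), and between inhibitory subclasses 65 of 90 (72.2%, against 42.3%). Whether these shares are particular to the 9 genes was not tested. With library totals in place of TMM, 166 of the 189 differences between populations passed, of which 10 had not passed with TMM, while 11 were lost.

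Among the presynaptic receptors, Ptprd made up 1.70% of all UMIs in excitatory neurons. Its mean over 4 libraries was 17010 CPM ± 1613 (SD) in excitatory and 3822 ± 252 in inhibitory neurons (log2 difference 2.32 ± 0.11 SE, edgeR adjusted p = 1.3e-24, against 63.9% of all genes that passed in this contrast). Oligodendrocytes followed excitatory neurons with 8173 ± 151 CPM, more than the precursors from which they arise (OPCs, 2118 ± 267, log2 difference 1.90 ± 0.11, edgeR adjusted p = 1.7e-20). OPCs and astrocytes were lowest, and the difference between them did not pass (astrocytes minus OPCs -0.11 ± 0.12, edgeR adjusted p = 0.55). Within excitatory neurons the L4/5 IT-like subclass stood highest with 23192 CPM, which are intratelencephalic neurons of the middle layers, and L6 IT-like lowest with 4713, a difference of 2.39 ± 0.05 (edgeR adjusted p = 1.3e-36) that had the same order in all 4 libraries. Among inhibitory subclasses Ptprd ran from 4267 CPM in MSN-like to 1715 in parvalbumin (PV)-like nuclei (1.48 ± 0.07, edgeR adjusted p = 8.3e-22). The difference between PV-like and somatostatin (SST)-like nuclei did not pass (-0.14 ± 0.07, edgeR adjusted p = 0.16).

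Nrxn3, the neurexin with the largest gene, had the opposite preference. It was higher in inhibitory neurons (10940 ± 528 CPM) than in excitatory neurons (7144 ± 361), with a log2 difference for excitatory minus inhibitory of -0.45 ± 0.08 (edgeR adjusted p = 1.1e-05). In the 4 libraries it read 18812, 18259, 20405 and 19380 CPM in VIP-like nuclei, in the order Control 1, Control 2, CrT-KO 1, CrT-KO 2, and 3287, 4373, 4073 and 4033 CPM in LAMP5-like nuclei. These 2 subclasses, of interneurons marked by vasoactive intestinal peptide and by LAMP5, were its highest and lowest inhibitory subclasses (LAMP5-like minus VIP-like -2.38 ± 0.07, edgeR adjusted p = 2.1e-29). SST-like nuclei stood close to VIP-like ones with 16905 CPM, although still lower (-0.25 ± 0.06, edgeR adjusted p = 0.0013). All 10 pairs of inhibitory subclasses differed in Nrxn3. In excitatory neurons the corticothalamic L6 CT-like subclass had the most (11107 CPM) and L6 IT-like the least (3874 CPM, difference 1.58 ± 0.05, edgeR adjusted p = 5.5e-28).

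Nrxn2 was a low neuronal gene whose highest level lay outside neurons. OPCs read 852, 870, 909 and 683 CPM in the 4 libraries, whereas excitatory neurons read 123 to 145 and inhibitory neurons 119 to 155. The ranges were far apart (excitatory neurons minus OPCs -2.35 ± 0.08, edgeR adjusted p = 8.2e-31), and astrocytes came next at 255 ± 31.6 CPM (astrocytes minus OPCs -1.78 ± 0.11, edgeR adjusted p = 5.2e-20). All 21 pairs of populations passed. The excitatory minus inhibitory difference of 0.20 ± 0.07 was among them, although the mean levels were 134 and 131 CPM, the order held in 2 of 4 libraries, and it was 0.03 ± 0.07 with library totals (edgeR adjusted p = 0.75). Among inhibitory subclasses VIP-like nuclei were highest (228 CPM) and MSN-like lowest (90.0 CPM, difference 1.28 ± 0.08, edgeR adjusted p = 2.6e-17). Among excitatory subclasses the extratelencephalic L5 ET-like nuclei were highest (176 CPM) and L4/5 IT-like lowest (84.2 CPM, difference 1.08 ± 0.07, edgeR adjusted p = 1.0e-17).

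Ptprs, the second LAR-type phosphatase, varied less than Ptprd. Excitatory neurons had 202 ± 18.8 CPM and inhibitory neurons 183 ± 16.8 (difference 0.32 ± 0.06, edgeR adjusted p = 6.0e-06), and oligodendrocytes had the least at 60 ± 7.41 (excitatory minus oligodendrocytes 2.10 ± 0.08, edgeR adjusted p = 4.1e-29). Its order over excitatory subclasses turned that of Ptprd around at one end: L6 IT-like nuclei, lowest for Ptprd, had the most Ptprs (280 CPM), and L6 CT-like the least (125 CPM, difference 1.12 ± 0.08, edgeR adjusted p = 4.9e-17). In inhibitory neurons PV-like nuclei were highest (215 CPM) and MSN-like lowest (123 CPM, difference 0.65 ± 0.07, edgeR adjusted p = 3.0e-11), again the reverse of Ptprd.

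On the postsynaptic side, Nlgn1, the neuroligin of excitatory synapses, was high in OPCs (7482 ± 191 CPM) and in excitatory neurons (5548 ± 116), a difference that did not pass with TMM (excitatory minus OPCs -0.14 ± 0.08, edgeR adjusted p = 0.15). It passed with library totals (-0.43 ± 0.08, edgeR adjusted p = 8.9e-06), and OPCs were higher in 4 of 4 libraries. Inhibitory neurons had less than excitatory neurons (4189 ± 225 CPM, difference 0.57 ± 0.08, edgeR adjusted p = 3.8e-08). That population hid a wide spread. MSN-like nuclei had 6386 ± 477 CPM and SST-like nuclei 2049 ± 67.8 (difference 1.77 ± 0.07, edgeR adjusted p = 3.5e-25), and the difference between PV-like and SST-like nuclei did not pass (0.04 ± 0.07, edgeR adjusted p = 0.73). L5 ET-like nuclei were the highest excitatory subclass (7416 CPM) and L6 IT-like the lowest (2317 CPM, difference 1.78 ± 0.06, edgeR adjusted p = 2.2e-29).

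Nlgn2, the neuroligin of inhibitory synapses, and Nlgn3, which occurs at both kinds of synapse, were counted sparsely, at a mean of 0.17 to 0.23 UMIs per nucleus in neurons. For Nlgn2, excitatory neurons had 25.5 ± 4.02 CPM and inhibitory neurons 26.6 ± 4.00, and none of the 10 pairs of inhibitory subclasses passed the test. The fitted excitatory minus inhibitory difference was 0.11 ± 0.06 and changed sign to -0.07 with library totals in place of TMM. Nlgn3 read 22.0 ± 2.25 CPM in excitatory and 26.0 ± 2.2 in inhibitory neurons (difference -0.07 ± 0.06, edgeR adjusted p = 0.34, and -0.24 ± 0.08 with library totals, edgeR adjusted p = 0.0065). Both peaked in OPCs, Nlgn2 at 62.7 ± 11.6 CPM (excitatory minus OPCs -1.01 ± 0.15, edgeR adjusted p = 1.7e-07) and Nlgn3 at 84.0 ± 7.72 (-1.64 ± 0.15, edgeR adjusted p = 2.3e-13). Nlgn3 in astrocytes, at 56.6 ± 16 CPM, lay below OPCs (-0.60 ± 0.22, edgeR adjusted p = 0.026). Its difference between MSN-like and VIP-like nuclei, 29.9 against 20.1 CPM, was 0.64 ± 0.17 (edgeR adjusted p = 0.0016).

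Lrrtm4 had the sharpest layer pattern of the postsynaptic genes. L5 ET-like nuclei read 8489, 9321, 10502 and 10736 CPM and L2/3 IT-like nuclei 8507, 8591, 10050 and 9623, whereas L4/5 IT-like nuclei read 1474, 1335, 1587 and 1475. L2/3 IT-like minus L5 ET-like was -0.11 ± 0.07 (edgeR adjusted p = 0.23), and the gap from L5 ET-like to L4/5 IT-like was 2.75 ± 0.08 on the log2 scale (edgeR adjusted p = 4.4e-31). The subclass richest in Ptprd was thus the poorest in Lrrtm4. Over inhibitory subclasses Lrrtm4 ran from 5584 CPM in VIP-like to 2820 in LAMP5-like nuclei (LAMP5-like minus VIP-like -1.08 ± 0.09, edgeR adjusted p = 3.3e-14). The difference between inhibitory neurons as a whole and OPCs did not pass (0.01 ± 0.10, edgeR adjusted p = 0.96).

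Il1rapl1, which codes for the postsynaptic partner of PTPRD, was the most even of the 5 longest genes over populations (highest minus lowest, OPCs minus microglia, 2.12 ± 0.10, edgeR adjusted p = 1.7e-23). Excitatory neurons (3596 ± 62.9 CPM), inhibitory neurons (3540 ± 148) and OPCs (4144 ± 200) lay close together. The differences of both neuron types from OPCs did not pass with TMM (excitatory minus OPCs 0.09 ± 0.10, edgeR adjusted p = 0.48). With library totals both passed with OPCs higher (excitatory -0.21 ± 0.09, edgeR adjusted p = 0.049, and inhibitory -0.23 ± 0.09, edgeR adjusted p = 0.034), and the excitatory minus inhibitory difference of 0.19 ± 0.09 (edgeR adjusted p = 0.072) was about the size of the scaling shift between these populations. L2/3 IT-like nuclei were highest in the excitatory class (5378 CPM) and L6b-like nuclei lowest (1746 CPM, difference 1.59 ± 0.05, edgeR adjusted p = 6.4e-30). PV-like nuclei, low in Ptprd, Nlgn1 and Nrxn2, had the most Il1rapl1 of the inhibitory subclasses (5169 ± 60.7 CPM, against 1926 ± 85.4 in VIP-like, difference 1.33 ± 0.07, edgeR adjusted p = 6.1e-21).

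To set the levels of different genes side by side, CPM were divided by the kilobases of gene body. This scaling is rough, since UMIs counted at the 3′ end need not rise in step with gene length. The order of genes within a cell type depends on it. In excitatory neurons this put Ptprd first at 7.49 CPM per kb, then Lrrtm4 (6.67), Nlgn1 (6.12), Nrxn3 (4.43), Ptprs (3.16), Il1rapl1 (2.62), Nlgn2 (1.74), Nrxn2 (1.07) and Nlgn3 (0.82). In OPCs the order was Nlgn1 (8.26), Nrxn2 (6.61), Lrrtm4 (6.36), Nlgn2 (4.28), Nlgn3 (3.14), Il1rapl1 (3.01), Ptprs (2.77), Nrxn3 (2.64) and Ptprd (0.93). The 2 cell types thus carried a different mix: the 3 neuroligins and Nrxn2 ranked higher per kb in OPCs, and Ptprd, first in excitatory neurons, came last.

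**Figure D1:**
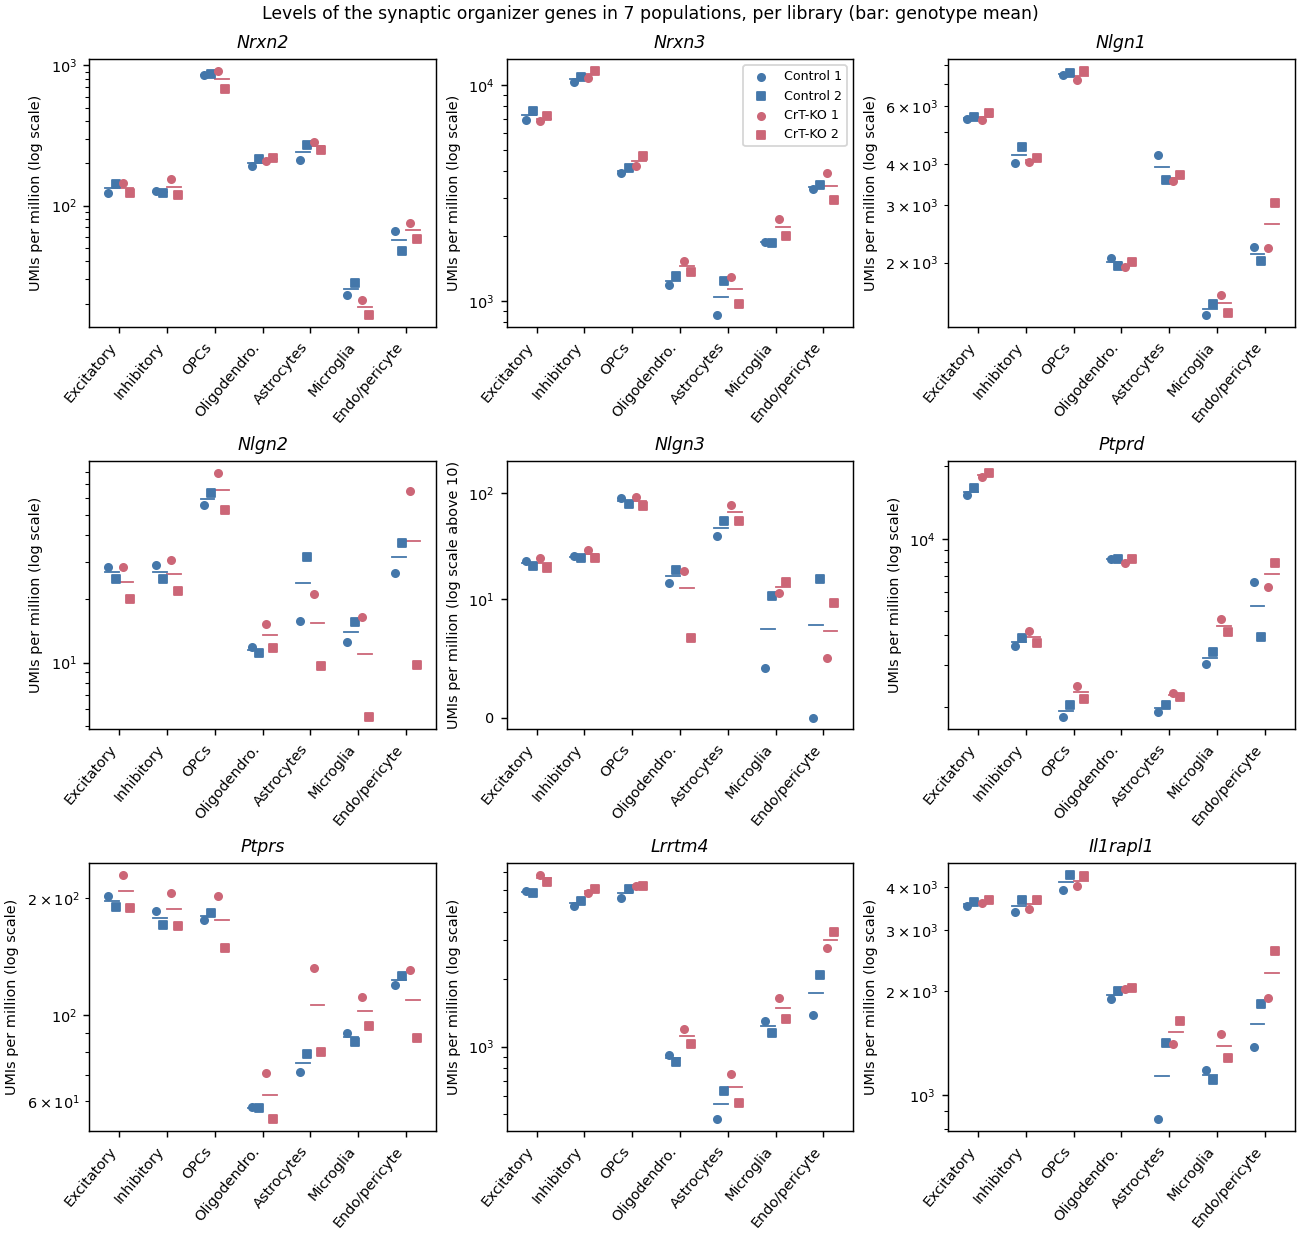
Level of each of the 9 genes (CPM, log scale) in the 7 populations, with 1 point per library, a bar for the mean of each genotype, and Control and CrT-KO in different colours. Ptprd stands highest in excitatory neurons (mean 17010 CPM), Nrxn3 in inhibitory neurons (10940 CPM), and Nrxn2, Nlgn1, Nlgn2, Nlgn3 and Il1rapl1 in OPCs.

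**Figure D2:**
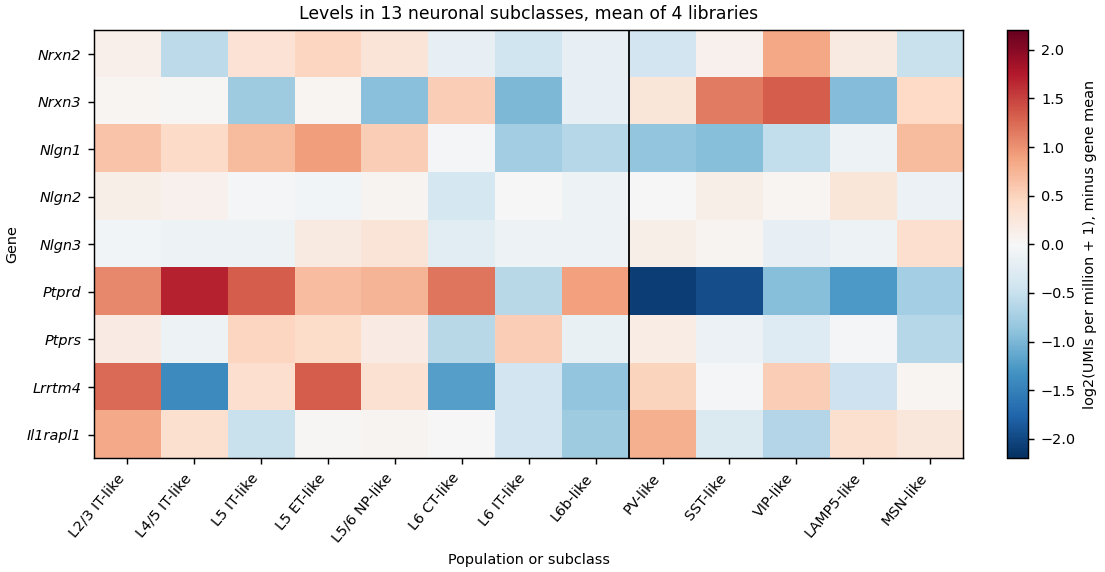
Mean level over 4 libraries in the 13 neuronal subclasses, coloured by log2(CPM + 1) minus the mean of that gene over the subclasses. L4/5 IT-like nuclei combine the highest Ptprd (23192 CPM) with the lowest Lrrtm4 (1468 CPM).

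Free RNA from broken neurons can add UMIs to glial nuclei, and every library was checked with 8 genes that only neurons should express (Slc17a7, Gad1, Gad2, Rbfox3, Syt1, Snap25, Camk2a and Sv2b). In OPCs these genes had a median level of 6.13% to 8.49% of that in the richer neuron type. All the 9 organizer genes except Ptprd lay above the highest of them in all 4 libraries, from 37.8% for Nrxn3 in its lowest library to 669% for Nrxn2 in its highest. Ptprd in OPCs lay at 11.6% to 13.6%, above the median of the neuron-restricted genes in all 4 libraries but inside their range. Its expression and free RNA cannot be told apart there. In oligodendrocytes 7 of the 9 passed this mark in every library, all but Nrxn3 (11.4% to 14.2%) and Lrrtm4 (17.7% to 20.6%). In astrocytes 6 of the 9 passed, all but Nrxn3, Ptprd and Lrrtm4. Microglia, whose nuclei held a median of 880 to 1032 UMIs, had a median restricted-gene level of 14.0% to 15.8%, and only Ptprs (44.4% to 49.9%) was above all restricted genes in the 4 libraries. In endothelial cells and pericytes the restricted genes reached a median of 24.4% to 43.2%, and none of the 9 was above them throughout. In microglia all of the 9 genes but Nrxn2 lay above the median of the restricted genes in all 4 libraries. A level inside the range does not show its source. Expression and free RNA thus cannot be told apart for the 9 genes in microglia and vascular nuclei. Ptprs in microglia lay above the highest restricted gene (34.0% to 39.6%), but the part of free RNA in its level was not tested.

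**Figure D3:**
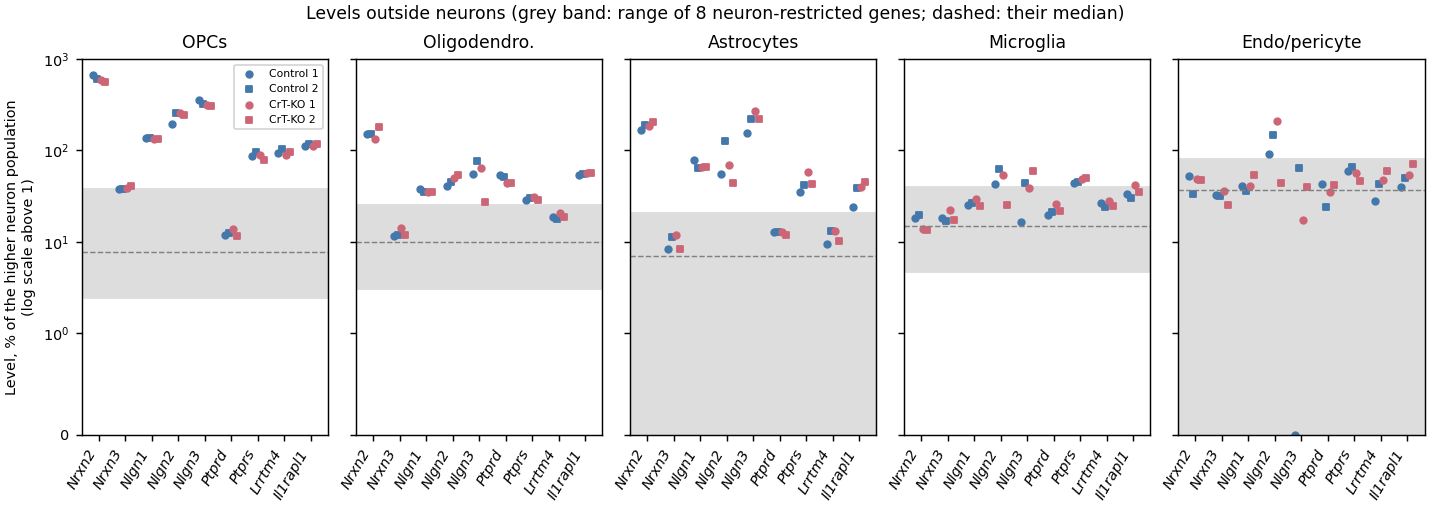
Level of each of the 9 genes in glial and vascular populations as a percentage of its level in the richer neuron type (log scale above 1), with 1 point per library, the range of the 8 neuron-restricted genes as a grey band and their median dashed. The band pools the libraries. In OPCs 7 of the 9 genes lie above it, Nrxn3 lies at its upper edge (37.8% to 40.5%, above each restricted gene of the same library) and Ptprd lies inside it (11.6% to 13.6%).

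The pattern of each gene over the 20 populations and subclasses was compared with that of 11318 genes above 10 CPM in at least 1 of them, by Pearson correlation of mean log2(CPM + 1), as a description only, since the 20 points share libraries and the subclasses are part of the populations. Ptprd was most like Neurod2, a transcription factor of excitatory neurons (r = 0.89), and B4galnt3 (0.89). Nrxn3 was most like Ccser1 (0.86) and Usp29 (0.86), Nrxn2 like Phactr3 (0.86) and Hip1r (0.85), and Ptprs like Osbpl6 (0.90) and the ephrin receptor gene Epha5 (0.88). Nlgn1 was closest to Acp1 (0.94) and Ccdc88c (0.77), Nlgn2 to Rnf32 (0.85) and Macroh2a2 (0.83), and Nlgn3 to Cspg5 (0.85), which codes for a proteoglycan, and Cfap47 (0.81). Both Lrrtm4 (0.84) and Il1rapl1 (0.78) were closest to Ppfia2, which codes for the scaffold liprin-α2 that binds LAR-type phosphatases. Their second genes were Rasgrf1 (0.82) and Gpr137c (0.75). Among the 9 genes themselves, Nrxn2 and Nlgn3 were the most alike (0.77), then Ptprs and Lrrtm4 (0.75), and Nlgn3 and Ptprd were the least alike (-0.32).

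The second comparison was between genotypes within each population. Because it served to choose the genes, no p is given for them, and the share of all tested genes with the same property stands beside each count. A gene is called here at an edgeR adjusted p under 0.1 over all genes of the population. All 9 genes passed the filter on low counts in neurons, oligodendrocytes and OPCs and in the 13 subclasses. Outside these, 8 passed in astrocytes (all but Nlgn2), 7 in microglia (all but Nlgn2 and Nlgn3) and 6 in vascular nuclei (all but Nlgn2, Nlgn3 and Nrxn2). In 7 populations none of the 9 was called, while 0.201% of all genes were called in excitatory neurons (28 genes, 1257 at an unadjusted p under 0.05) and 0.0944% in inhibitory neurons (12 genes, 687 at an unadjusted p under 0.05). In the other populations 0.0412% were called in microglia, 0.0341% in OPCs, 0.0328% in oligodendrocytes, 0.0199% in astrocytes and 0.0% in vascular nuclei (0 of 3319 genes, 128 at an unadjusted p under 0.05). DESeq2 called Lrrtm4 in excitatory neurons. In 13 subclasses there were 3 calls: Ptprd in L2/3 IT-like nuclei, where 0.959% of all genes were called, Ptprd in L4/5 IT-like nuclei (0.661%) and Lrrtm4 in L5 IT-like nuclei (0.324%). Both are among the genes above 500 kb, of which larger shares were called there: 12.6% in L2/3 IT-like, 8.64% in L4/5 IT-like and 3.69% in L5 IT-like nuclei. The call in L4/5 IT-like nuclei was lost in 6 of 10 alternatives and that in L5 IT-like nuclei in 4 of 10. Because the genotype difference served to choose the genes, these calls are counts and nothing is read from them. In the subclasses with no such call the share of genes called was 0.240% in L6 CT-like, 0.212% in L5/6 NP-like, 0.131% in L5 ET-like, 0.0518% in L6 IT-like, 0.0241% in L6b-like, 0.0806% in SST-like, 0.0423% in MSN-like, 0.0161% in LAMP5-like, 0.0137% in VIP-like and 0.0% in PV-like nuclei (0 of 9399 genes, 501 at an unadjusted p under 0.05). The median log2 fold change (CrT-KO minus Control) over the 9 genes was 0.06 in excitatory and 0.09 in inhibitory neurons, and over all genes -0.0043 and -0.0022. In a sum over a population that mixes several types, fewer cells of a type and less RNA per cell cannot be told apart.

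Ptprd was higher in both CrT-KO libraries in excitatory neurons as a whole, in their 8 subclasses and in 23 of 25 clusters. Subclasses and clusters, here and below, are parts of the same 4 libraries. Counts over them are therefore not independent of each other. In the whole population it read 15185 and 16171 CPM in Control and 18008 and 18677 in CrT-KO, 1.21-fold more with a log2 change of 0.28 ± 0.07 (SE), and the groups did not overlap. Both CrT-KO libraries lay above both Control libraries in 11.4% of all genes of this population. L2/3 IT-like nuclei showed the widest gap of the 8 excitatory subclasses, with 13049 and 13372 CPM in Control and 16341 and 17067 in CrT-KO (0.39 ± 0.07, 1.31-fold). L4/5 IT-like nuclei read 20878 and 21653 against 24854 and 25385 CPM (0.29 ± 0.06). The groups did not overlap in any of the 8 excitatory subclasses, with fold changes from 0.20 to 0.39 on the log2 scale. Of all genes, both CrT-KO libraries lay above in 13% in L2/3 IT-like, 13.8% in L4/5 IT-like, 15.3% in L5 IT-like, 13.4% in L5 ET-like, 13.9% in L5/6 NP-like, 15.6% in L6 IT-like, 14.6% in L6 CT-like and 14.3% in L6b-like nuclei. Over single clusters, 14.7% of all gene and cluster pairs had CrT-KO above Control, and in the other 2 clusters Ptprd overlapped.

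Outside excitatory neurons the values of Ptprd were of both kinds. Inhibitory neurons read 3580 and 3886 CPM in Control and 4149 and 3675 in CrT-KO (0.08 ± 0.10), so the groups overlapped. CrT-KO lay above Control in 12 of 23 inhibitory clusters and below it in 2, against 16.4% and 17.5% of all gene and cluster pairs. All 5 inhibitory subclasses had positive values, and 3 were without overlap, as were 16.5% of all genes in PV-like, 16.3% in MSN-like and 18.3% in VIP-like nuclei in that direction. They were PV-like (1554 and 1646 against 1884 and 1774 CPM, 0.20 ± 0.08), MSN-like (3814 and 4236 against 4383 and 4634 CPM, 0.17 ± 0.12) and VIP-like nuclei (3593 and 3773 against 3805 and 3827 CPM, 0.04 ± 0.10). The other two, SST-like (0.25 ± 0.10) and LAMP5-like (0.18 ± 0.13), overlapped. Oligodendrocytes, the second highest population, read 8232, 8268, 7947 and 8244 CPM in the same order of libraries, a log2 fold change of -0.04 ± 0.11. Microglia read 3015 and 3388 against 4623 and 4099 CPM (0.44 ± 0.11), where 17.5% of all genes did not overlap upwards. OPCs (1817 and 2035 against 2456 and 2162 CPM, 0.27 ± 0.12) and astrocytes (1918 and 2044 against 2294 and 2212 CPM, 0.18 ± 0.15) were also without overlap, against 17.2% and 16.4% of genes, at levels inside the free-RNA range. The level of Ptprd in microglia is inside the free-RNA range, and the summed neuron-restricted genes there also read higher in CrT-KO (2312 and 2100.0 CPM) than in Control (1957 and 1984). The part of free RNA in this difference was not tested.

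Lrrtm4 was the second gene with a wide shift. In excitatory neurons it read 4965 and 4852 CPM in Control and 5824 and 5458 in CrT-KO (0.25 ± 0.06, 1.19-fold), against 11.4% of genes without overlap in that direction. In inhibitory neurons the values were 4265 and 4464 against 4850 and 5049 CPM (0.20 ± 0.10), and 13.9% of all genes there also had both CrT-KO libraries above both Control libraries. MSN-like nuclei held the largest fitted change of any of the 9 genes in the 13 subclasses. They read 2836 and 3544 CPM in Control and 4750 and 4743 in CrT-KO (0.58 ± 0.13, 1.5-fold), against 16.3% of genes without overlap in that direction. Of the 6 MSN-like clusters, 4 had CrT-KO above Control, including the cluster led by Drd2, a marker of the indirect pathway (3129 and 3931 against 5469 and 5531 CPM), and the cluster led by Ebf1 (2493 and 3123 against 4586 and 4365 CPM). In L5 IT-like nuclei Lrrtm4 read 4227 and 4697 against 5510 and 5404 CPM (0.31 ± 0.07, against 15.3% of genes). Both CrT-KO libraries were above in 5 of 8 excitatory and 2 of 5 inhibitory subclasses (MSN-like and VIP-like, the latter against 18.3% of all genes), and all 13 fold changes were positive (0.01 to 0.58). Single clusters were less uniform. Of 25 excitatory clusters, 10 had CrT-KO above Control, 4 below and 11 overlapped, and 18 log2 ratios were positive (lowest -0.53). Of all gene and cluster pairs there, 14.7% lay above and 21.6% below. Of 23 inhibitory clusters, 10 lay above, against 16.4% of pairs, and 0 below.

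**Figure D4:**
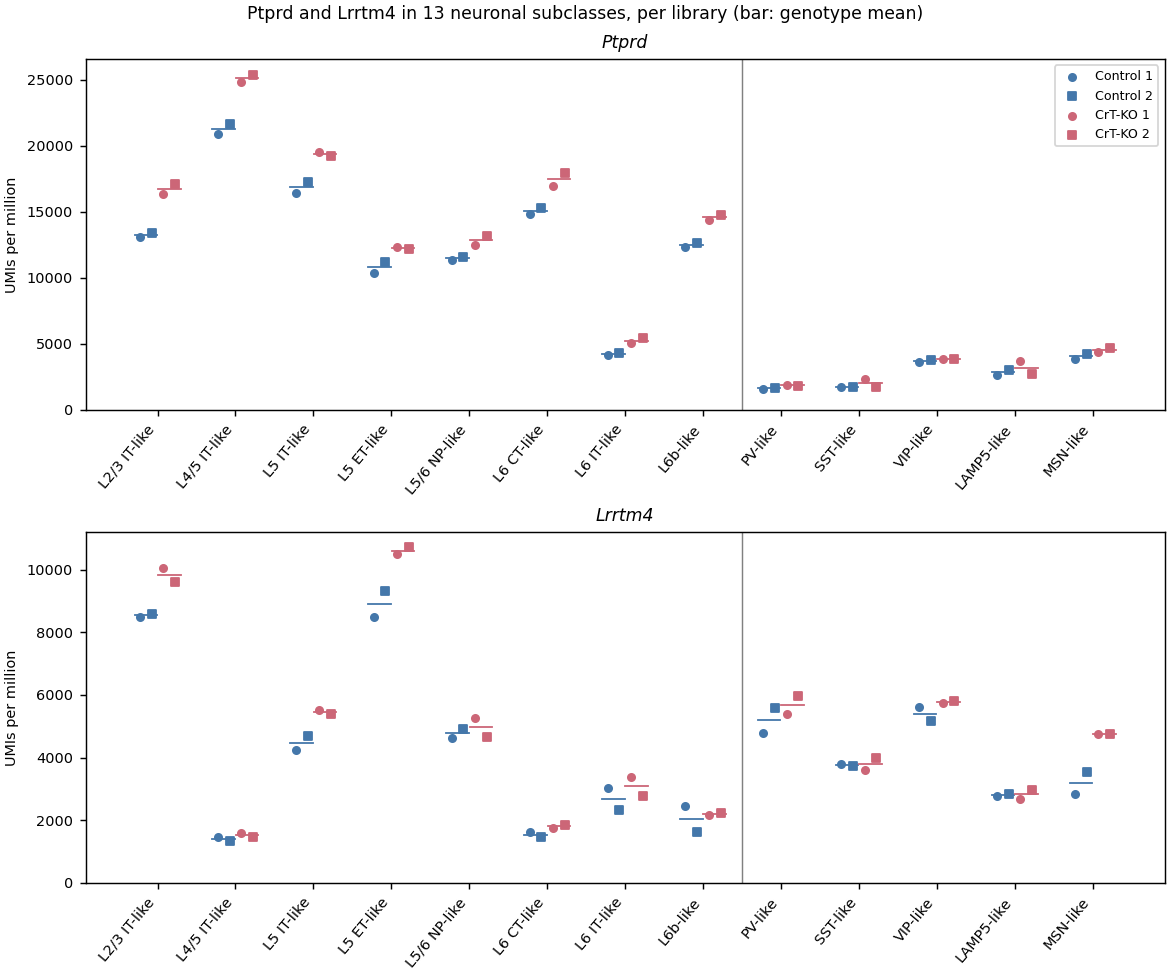
Level of Ptprd and of Lrrtm4 (CPM, linear scale from 0) in each library for the 13 neuronal subclasses, with a bar for the mean of each genotype and Control and CrT-KO in different colours. For Ptprd the CrT-KO points lie above the Control points in all 8 excitatory subclasses, and for Lrrtm4 the largest relative gap is in MSN-like nuclei (2836 and 3544 against 4750 and 4743 CPM).

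In oligodendrocytes Lrrtm4 read 922 and 856 CPM in Control and 1198 and 1028 in CrT-KO (0.31 ± 0.11), and Nrxn3 moved alike (0.21 ± 0.11), where 19.7% of all genes had both CrT-KO libraries above. Both genes were inside the free-RNA range of that population, pooled over its libraries, and the neuron-restricted genes summed to 1191 and 1354 CPM in Control and 1538 and 1447 in CrT-KO. Endothelial cells and pericytes had the widest Lrrtm4 values, 1380 and 2093 against 2771 and 3239 CPM (0.81 ± 0.29), also inside the pooled range there, and rested on 290 nuclei, where 14.4% of all genes had both CrT-KO libraries above. In OPCs, where Lrrtm4 was above the free-RNA range, it read 4626 and 5082 against 5195 and 5213 CPM (0.10 ± 0.11, against 17.2% of genes). The part of free RNA in these differences was not tested.

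The other presynaptic genes showed small and mixed genotype values. Nrxn3 in excitatory neurons read 6913 and 7630 CPM in Control and 6831 and 7201 in CrT-KO (-0.0025 ± 0.07), and its groups overlapped in 6 of 8 excitatory subclasses. In L6 IT-like nuclei it was below Control (3875 and 4620 against 3207 and 3794 CPM, -0.25 ± 0.11), as were 20% of all genes. Nrxn2 overlapped in both neuron types (0.05 ± 0.09 in excitatory and 0.15 ± 0.09 in inhibitory neurons). Ptprs was 0.14 ± 0.08 in excitatory neurons with overlap. Its groups parted in 1 excitatory subclass, L6 CT-like (115 and 114 against 147 and 123 CPM, 0.27 ± 0.11, against 14.6% of genes). In astrocytes, where 16.4% of genes had both CrT-KO libraries above, Ptprs read 71.0 and 79.3 CPM in Control and 132 and 80.2 in CrT-KO (0.46 ± 0.32), with the first Control library resting on 57 nuclei.

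Of the neuroligins, Nlgn1 overlapped in all 7 populations, with 0.06 ± 0.07 in excitatory and -0.04 ± 0.10 in inhibitory neurons. Its values parted by subclass. PV-like nuclei read 2188 and 2463 CPM in Control and 1984 and 1992 in CrT-KO (-0.22 ± 0.08), and VIP-like nuclei 2825 and 2929 against 2452 and 2555 (-0.22 ± 0.11). LAMP5-like nuclei read 4123 and 3801 against 2912 and 3797 CPM (-0.23 ± 0.12), with nearly equal values in Control 2 and CrT-KO 2. Both CrT-KO libraries lay below in 17.4% of all genes in PV-like, 15.6% in VIP-like and 17.1% in LAMP5-like nuclei. The groups overlapped in MSN-like (-0.05 ± 0.13) and SST-like nuclei (0.01 ± 0.08). In L4/5 IT-like nuclei Nlgn1 lay above Control instead (5003 and 5210 against 5520 and 5357 CPM, 0.14 ± 0.07), as did 13.8% of all genes. It lay below in 3 other excitatory subclasses, L5 IT-like (-0.07 ± 0.07, as did 21.2% of all genes), L6b-like (-0.11 ± 0.11, 19.1%) and L6 IT-like nuclei (-0.04 ± 0.11). Nlgn2 and Nlgn3 overlapped in both neuron types, with standard errors of 0.11 to 0.13, and Nlgn3 in PV-like nuclei read 22.8 and 22.7 against 31.9 and 24.1 CPM (0.31 ± 0.21, against 16.5% of genes). In SST-like nuclei Nlgn3 also lay above (0.22 ± 0.24, against 14.5%), and none of the 9 genes did so in LAMP5-like nuclei (16.2%).

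Il1rapl1 differed little in neurons. Excitatory neurons read 3512 and 3622 CPM in Control and 3589 and 3659 in CrT-KO (0.07 ± 0.06), and inhibitory neurons 3373 and 3667 against 3458 and 3662 (0.03 ± 0.10). L2/3 IT-like nuclei were without overlap (5109 and 5336 against 5520 and 5547 CPM, 0.13 ± 0.07). In excitatory neurons as a whole the fold was 1.05 for Il1rapl1 and 1.21 for Ptprd, whose products bind each other. This difference between the genes was not tested.

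**Figure D5:**
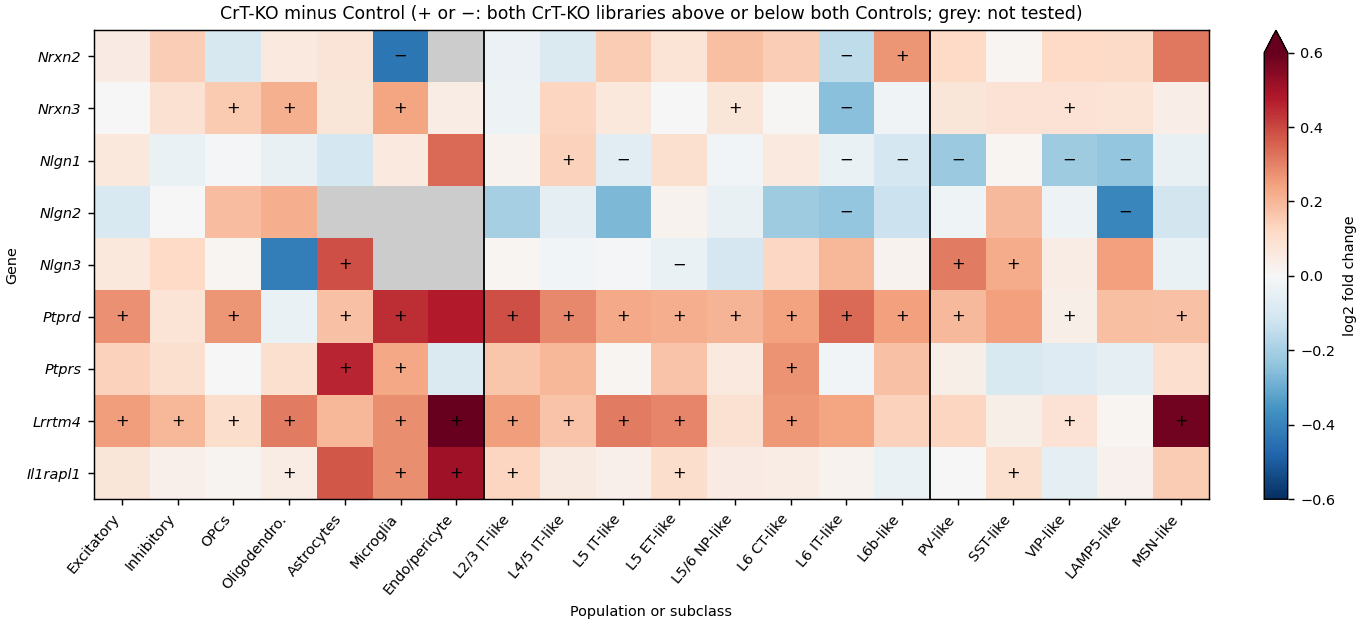
Log2 fold change (CrT-KO minus Control, edgeR) of the 9 genes in the 7 populations and 13 subclasses, with + or − where both CrT-KO libraries lie above or below both Control libraries, and grey where a gene was not tested. Ptprd is positive in all 8 excitatory subclasses (0.20 to 0.39), and Nlgn1 is negative in PV-like, VIP-like and LAMP5-like nuclei (-0.23 to -0.22).

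Long genes were above the median of all genes in most groups. In excitatory neurons the 226 tested genes above 500 kb had a median log2 fold change of 0.06, and 66.4% of them were positive. The median was 0.10 in vascular nuclei, 0.09 in microglia, 0.07 in oligodendrocytes, 0.03 in OPCs, 0.01 in astrocytes and 0.01 in inhibitory neurons (225 such genes). Over the subclasses it ran from -0.04 in VIP-like to 0.05 in L4/5 IT-like nuclei. Ptprd (0.28) and Lrrtm4 (0.25) lay above the excitatory median of long genes, and Nrxn3 (-0.0025) lay below it. The part of gene length in the differences was not tested.

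Other synaptic organizer genes were followed in 4 lists that hold 72 genes: 20 postsynaptic partners, 15 secreted or bridging proteins, 18 genes from latrophilins to dystroglycan, and 19 scaffolds. In excitatory neurons 67 were tested and in inhibitory neurons 65, and none was called in any of the 7 populations. Their median log2 fold change was 0.02 in excitatory neurons, with 36 of 67 positive, and -0.0028 in inhibitory neurons, with 32 of 65 positive, next to -0.0043 and -0.0022 over all genes. By list, the excitatory medians were -0.05 for the postsynaptic partners, -0.06 for secreted and bridging proteins, 0.02 for latrophilins to dystroglycan and 0.05 for scaffolds. The largest values in either direction did not pass: Nxph4 (0.61 ± 0.37) and Nxph3 (-0.59 ± 0.30), neurexophilins that bind neurexins, had 12 to 38 UMIs per library in excitatory neurons. Ntng1 (0.27 ± 0.07) and Slitrk5 (-0.30 ± 0.09) were the next there. In inhibitory neurons these places were taken by Mdga1 (0.28 ± 0.15), an inhibitor of neuroligin binding, Lin7a (0.18 ± 0.08), and the cerebellins Cbln4 (-0.51 ± 0.29) and Cbln2 (-0.45 ± 0.31), which bridge neurexins to glutamate receptors of the delta type.

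In subclasses 5 organizer genes were called, and they are named here after their values were seen. Ntrk3, a receptor that binds PTPRS, fell in L4/5 IT-like nuclei from 392 and 406 CPM to 277 and 227 (-0.62 ± 0.10, edgeR adjusted p = 0.025). Il1rapl2, the paralog of Il1rapl1, fell in L5 ET-like nuclei from 132 and 107 to 71.1 and 75.6 CPM (-0.67 ± 0.13, edgeR adjusted p = 0.050). Ntng2 rose in the same nuclei from 25.8 and 15.0 to 39.1 and 41.7 CPM (0.99 ± 0.21, edgeR adjusted p = 0.094). In L5 IT-like nuclei Lrrc4c rose from 2489 and 2101 to 2918 and 3083 CPM (0.41 ± 0.08, edgeR adjusted p = 0.0198), and Ntng1, whose product netrin-G1 binds that of Lrrc4c, rose from 149 and 136 to 225 and 175 CPM (0.52 ± 0.12, edgeR adjusted p = 0.080). Of all genes, 0.661% were called in L4/5 IT-like, 0.131% in L5 ET-like and 0.324% in L5 IT-like nuclei. With 2 libraries per genotype, the p-values measure the spread between 4 animals, and 1 library can decide a call.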

How the data were processed

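Single-nucleus RNA libraries of 4 mice were analysed from the gene by nucleus matrices that the authors deposited. The deposited values are raw UMI counts that the authors made with Cell Ranger 3.1.0 on a GRCm38 (mm10) pre-mRNA reference, in which introns count as part of the gene, and the study's own clustering used Seurat 3.1.4. Counting the whole gene body favours long genes, and the setting for strand is not given in the sources used here, so reads of overlapping genes may be shared. Total counts per library were 51507483 to 65240843.

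Nuclei were clustered with scanpy 1.11.5 (3000 variable genes, 30 components, 20 neighbours, resolution 1) without the 9 genes and the organizer lists. Doublets predicted by scrublet in each library (2.83% to 4.16%) were removed, and clusters were named from markers, with at least 3 detected. Of 34 population clusters 4 stayed unnamed, as did 11 of 25 excitatory and 7 of 23 inhibitory subclusters. No deposited annotation of nuclei was used.

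Counts were summed per library and population and tested with edgeR 4.0.16 (quasi-likelihood, TMM, a count minimum of 10, Benjamini-Hochberg over all genes, threshold 0.1), since nuclei of 1 animal are not replicates. Genotypes were compared within each population, and cell types in 1 fit with the library as a block. On simulated counts for excitatory neurons (13965 genes) 67% of 1.5-fold and 99% of 2-fold changes were recovered, with 18 false calls. The simulation gave every gene the same fixed dispersion and changed only well-counted genes. These rates thus need not hold for the 4 animals, and smaller changes were not simulated. Alternatives were DESeq2 1.42.0, no TMM, no filter, a replicate block, each library left out, doublets kept and the 9 genes included in clustering.

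The 9 genes, the lists and the tests were chosen with earlier results of these data known. Named besides the 9 were Slc6a8, organizer genes called in any of 7 populations or else the 2 largest changes in each direction in each neuron type, and for each of the 9 the 2 genes most like it. Organizer genes called in subclasses were added after their values were seen. Promoter windows came from RefSeq (GRCm38.p6) and matched 6 of the 9 genes. Some genes of the lists are not reported here.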

Additional observations from a re-analysis of the deposited data

Results flagged for a closer look

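Some of the 9 genes lay on opposite sides of Control in different cell types, with both CrT-KO libraries above both Control libraries in one and below them in another. The differences between cell types in these genotype values were not tested. How many of all genes lie on both sides somewhere in the 20 populations and subclasses was not counted, so nothing is read from this pattern. Nrxn2 had a log2 fold change (CrT-KO minus Control) of 0.26 in L6b-like nuclei (14.3% of all genes lay above there). It had -0.43 in microglia (17.4% below), where its level was within the free-RNA range. Nrxn3 had 0.23 in microglia, also within that range, and -0.25 in L6 IT-like nuclei. Nlgn1 had 0.14 in L4/5 IT-like (13.8% above) and -0.23 in LAMP5-like nuclei (17.1% below). It lay above Control in 1 and below it in 6 of the 20 populations and subclasses. Nlgn3 had 0.39 in astrocytes (16.4% above) and -0.042 in L5 ET-like nuclei (23.0% below).

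The 1273 nuclei that could not be named entered no comparison. In them Ptprd averaged 3078 CPM in the CrT-KO libraries (2934 and 3223) above 2139 and 2634 in Control, and Lrrtm4 averaged 4620 CPM (4844 and 4395) above 3820 and 4061 in Control. The share of all genes without overlap was not computed for these nuclei. They joined 4 clusters of uneven make-up: 1 library gave 41.2% of a cluster of 633 nuclei and 100% of a cluster of 15. The part of this mix in the values was not tested, and nothing is read from them.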

How the results depend on the processing

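The count of called genes moved with the settings, and so did part of the values of the 9 genes. Of 887 recomputed genotype values, 111 moved by more than the SD between libraries of a genotype. In excitatory neurons 28 genes were called, and DESeq2 called 70, library totals without TMM 10, no filter on low counts 12, an adjusted p of 0.05 14, and leaving out 1 library 8 (without Control 2) to 214 (without CrT-KO 2). In inhibitory neurons the 12 calls became 7 with DESeq2, 7 without TMM and 23 to 42 with 1 library left out. The 9 calls in the 5 glial and vascular populations became 3 with DESeq2, 27 without TMM, 31 without the filter, 30 with doublets kept and 29 to 177 with 1 library left out. The replicate block (animals paired by number) called 693, 124 and 98 genes in these 3 sets. The labels do not say whether libraries of the same number belong together. Deviations of same-numbered libraries correlated at 0.24 in excitatory and 0.16 in inhibitory neurons, and 2 pairs cannot settle it.

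Of the 9 genes, none was called in the 7 populations, but Lrrtm4 was with DESeq2 (1 call in excitatory neurons), Ptprd without the filter (1, in microglia), both with the replicate block (2, in excitatory neurons), and Ptprd without CrT-KO 1 (excitatory neurons) or CrT-KO 2 (microglia), giving 0 to 1 with a library left out. The 3 calls in subclasses became 6 without the filter, 8 with the replicate block, 1 with the 9 genes included in clustering, 1 at an adjusted p of 0.05 and 2 to 7 with a library left out. These calls support nothing, since the contrast chose the genes. Ptprd in L2/3 IT-like nuclei lost its call in 1 of 10 alternatives, the clustering that included the 9 genes (log2 fold change 0.34 to 0.43 over the alternatives). Ptprd in L4/5 IT-like nuclei lost it in 6, without TMM, with doublets kept, with the 9 genes in clustering, and without Control 1, Control 2 or CrT-KO 2 (0.24 to 0.32). Lrrtm4 in L5 IT-like nuclei lost it in 4, with DESeq2, with doublets kept, and without Control 1 or CrT-KO 2 (0.23 to 0.41). The median of the 9 genes in excitatory neurons (0.06) ranged from 0.030 to 0.152 with a library left out. The log2 fold change of Ptprd stayed positive in all alternatives in excitatory neurons (0.21 to 0.34) and in the 8 excitatory subclasses.

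Between cell types, 382 of 396 recomputed values of the 36 differences chosen for this check kept their direction and side of the threshold, 10 lost the call, 3 gained it and 1 changed sign, Nlgn2 between excitatory and inhibitory neurons (-0.066 without TMM). The causes of these changes were not tested. Depth limits Nlgn2 and Nlgn3, which had 5398 and 4916 UMIs in all, and every population of glia.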
